A study of Mus musculus with 20 samples.

Results

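Cxcl9, Cxcl10, Cxcl16, Ccl5 and Ccl22 are 5 chemokine genes, taken by name from the 54532 genes of a table of RNA sequencing counts of whole mouse spleen. All 5 were among the 18362 genes that passed the filter on low counts and were tested. They were chosen by name as attractors of T cells and selected on their higher levels in the diet comparison of these libraries, so their diet values are given as a description and nothing rests on a test of them. The spleens came from mice aged 4 weeks. The 9 gluten-free libraries are from mice bred on a gluten-free diet, 4 with plain number IDs (7 to 10) and 5 with IDs beginning with S (S1, S3, S5, S6 and S8). The 11 control libraries are 8 with plain IDs (1 to 8) and 3 with S IDs (S1, S2 and S6). The sources used here give no strain, no composition of the control diet and no meaning for the letter S, so diets were compared within each ID form too. Nor do they say that IDs stand for separate mice, so the errors measure the spread between these libraries, which may be partly technical.

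Chemokines are small secreted proteins that guide leukocytes along gradients by binding receptors coupled to G proteins. CXCL9 and CXCL10 are made by many cells after interferon gamma and bind CXCR3, carried by activated T cells and natural killer cells. CXCL16 is made as a membrane protein on dendritic cells and macrophages, is cut loose by ADAM10 and ADAM17, and binds CXCR6. CCL5 is stored by activated T cells and natural killer cells and binds CCR1 and CCR3, among others. CCL22 is a product of dendritic cells and macrophages and binds CCR4, which is common on regulatory T cells. In the spleen, chemokines sort lymphocytes and dendritic cells into the white pulp.

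In the GRCm38 coordinates of the file, Cxcl9 (ENSMUSG00000029417) lies on chromosome 5 from 92321347 to 92328079 and Cxcl10 (ENSMUSG00000034855) on chromosome 5 from 92346638 to 92348889. Cxcl16 (ENSMUSG00000018920) spans 70453983 to 70459984 and Ccl5 (ENSMUSG00000035042) 83525778 to 83530518, both on chromosome 11. Ccl22 (ENSMUSG00000031779) spans 94745590 to 94751699 on chromosome 8 and is the only one of the 5 on the plus strand. Art3, on the plus strand, runs across the whole of Cxcl10 and had 664 counts over the 20 libraries, against 3184 for Cxcl10. Zmynd15, also on the plus strand, overlaps the start of Cxcl16 and had 3045 counts, against 8364 for Cxcl16. The sources used here do not say whether counting used strand, so the Cxcl10 and Cxcl16 values may share some reads with these partners.

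The RefSeq promoter table (GRCm38.p6) held 3 of the 5 genes, Cxcl9, Cxcl10 and Ccl22, while Cxcl16 and Ccl5 are named only. Their 250 bases before the RefSeq start are printed because they show where a pattern of interferon regulatory factors and a pattern of NF-kB stand before these genes. Other patterns, of interferon responses among them, are not covered. Cxcl9 is at chr5:92328080-92328329 (minus strand), Cxcl10 at chr5:92348890-92349139 (minus strand) and Ccl22 at chr8:94745434-94745683 (plus strand). For Ccl22 the RefSeq start is base 94745684, which is not the gene start of the counted annotation. Each is written 5′ to 3′ on the gene's strand, with matches on either strand in capitals.
Cxcl9: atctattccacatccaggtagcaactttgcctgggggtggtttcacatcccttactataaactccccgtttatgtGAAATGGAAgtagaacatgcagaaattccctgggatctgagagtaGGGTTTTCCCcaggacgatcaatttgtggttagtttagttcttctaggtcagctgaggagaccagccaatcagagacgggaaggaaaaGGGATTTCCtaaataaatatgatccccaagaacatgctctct
Cxcl10: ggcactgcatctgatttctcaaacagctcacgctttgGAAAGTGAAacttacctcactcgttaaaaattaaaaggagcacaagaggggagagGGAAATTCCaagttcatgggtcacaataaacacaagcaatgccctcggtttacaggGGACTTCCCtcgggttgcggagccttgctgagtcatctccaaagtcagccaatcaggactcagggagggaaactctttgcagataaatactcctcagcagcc
Ccl22: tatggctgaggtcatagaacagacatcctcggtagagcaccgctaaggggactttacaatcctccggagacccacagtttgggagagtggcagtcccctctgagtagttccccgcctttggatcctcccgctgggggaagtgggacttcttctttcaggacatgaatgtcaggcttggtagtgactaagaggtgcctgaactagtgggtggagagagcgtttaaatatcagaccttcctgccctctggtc

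The letters searched on both strands were GAAANNGAA, a pair of half-sites of interferon regulatory factors, and GGNNTTNCC, a core of NF-kB sites. The Cxcl9 window held 1 interferon regulatory factor match, GAAATGGAA, and 3 NF-kB core matches, of which GGGTTTTCC and GGTTTTCCC overlap and GGGATTTCC lies nearest the start. The Cxcl10 window held 1 interferon regulatory factor match, GAAAGTGAA, and 2 NF-kB core matches, GGACTTCCC and, on the opposite strand, GGAATTTCC, which stands in the printed line as GGAAATTCC. No match to these letters lay in the Ccl22 window. Of all 32851 windows of the table, 7.13% held GAAANNGAA and 13.5% held GGNNTTNCC. A match is a description of letters, not a bound site.

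Library totals ran from 16134584 to 24268237 counts in gluten-free and from 13626021 to 19719591 counts in control libraries. Each of the 5 genes had 87 or more counts in every library, so the counting error of 1 library lay between 2.94% and 10.7% of its value. None of the marker genes of 11 cell type lists, B cells, macrophages and red cell precursors among them, was at 0 in any library. On the first 2 principal components (26% and 13.8% of the variance), control 5 lay among the S libraries on the second (-20.4, against 21 to 37.5 in the other plain control libraries). Gluten-free S8 lay lowest on the first (-61.9). Control S6 had a summed T cell marker level of 1229 CPM, against 454.8 and 411.4 CPM in control S1 and S2. Values without control 5, control S6 or gluten-free S8 are given beside the chemokine results they move, while the marker sums below include these libraries.

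Levels are given as CPM, counts relative to the library's total after TMM scaling, which corrects that total for a few very abundant genes. Among plain IDs, Cxcl9 had 34.3, 27.3, 30.1 and 34.1 CPM in gluten-free 7, 8, 9 and 10, while the 8 control libraries had a lowest value of 10.9, a median of 14.3 and a highest of 25.2 CPM (control 2). All 4 gluten-free libraries lay above all 8 control libraries, and the groups averaged 31.4 ± 3.37 CPM (SD, n = 4) in gluten-free and 15.9 ± 4.89 CPM (SD, n = 8) in control. How many of all genes separate in this way was not counted. Since the genes were selected on the diet comparison, nothing is read from the separation, here or for Cxcl16. Among S IDs, Cxcl9 had 25.6, 36.5, 42.3, 39.4 and 21.8 CPM in gluten-free S1, S3, S5, S6 and S8, and 16.0, 11.8 and 30.3 CPM in control S1, S2 and S6. There the groups overlapped, because control S6 lay above gluten-free S1 and S8. The log2 fold change, gluten-free minus control, was 0.97 ± 0.18 (SE) among plain IDs, 0.77 ± 0.31 among S IDs and 0.89 ± 0.18 over both forms. Without control S6 the value among S IDs was 1.25, without control S2 it was 0.52 and without gluten-free S8 it was 0.89.

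Cxcl10, which shares its receptor with Cxcl9 and lies beside it on chromosome 5, had 9.50, 7.07, 9.00 and 12.9 CPM in the plain gluten-free libraries. The plain control libraries had a lowest value of 6.09, a median of 8.15 and a highest of 12.7 CPM. The S libraries had 9.87, 7.98, 10.7, 8.61 and 6.20 CPM in gluten-free S1, S3, S5, S6 and S8, against 6.63, 7.06 and 10.3 CPM in control S1, S2 and S6. The ranges overlapped nearly in full in both ID forms, and 1 of 9 gluten-free libraries exceeded the highest control library. The log2 fold changes were 0.16 ± 0.20 among plain IDs, 0.12 ± 0.23 among S IDs and 0.14 ± 0.16 over both forms (SE), each smaller than its own error. Among S IDs the value was 0.34 without control S6, 0.22 without gluten-free S8 and -0.00092 without control S1, and among plain IDs it was -0.013 without gluten-free 10. Its overlap with Art3 on the other strand was not resolved.

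Cxcl16 had 27.7, 26.9, 29.6 and 28.3 CPM in gluten-free 7, 8, 9 and 10. The plain control libraries had a lowest value of 15.6, a median of 17.9 and a highest of 21.9 CPM. As for Cxcl9, the plain groups did not overlap, with means of 28.1 ± 1.14 CPM (SD, n = 4) in gluten-free and 18.0 ± 2.27 CPM (SD, n = 8) in control libraries. Among S IDs, Cxcl16 had 23.6, 29.2, 26.8, 27.1 and 19.9 CPM in gluten-free S1, S3, S5, S6 and S8, and 19.7, 16.6 and 25.6 CPM in control S1, S2 and S6. Of all 9 gluten-free libraries, 7 lay above the highest of the 11 control libraries, the largest number among the 5 genes. The log2 fold change was 0.64 ± 0.10 among plain IDs, 0.30 ± 0.18 among S IDs and 0.50 ± 0.10 over both forms (SE). Among S IDs it was 0.48 without control S6, 0.37 without gluten-free S8 and 0.16 without control S2.

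Ccl5 had 36.0, 37.1, 36.8 and 34.5 CPM in gluten-free 7, 8, 9 and 10, against a lowest value of 25.4, a median of 26.8 and a highest of 39.4 CPM in the plain control libraries. The highest, control 5, exceeded every plain gluten-free library, so the groups overlapped. Among S IDs, Ccl5 had 39.2, 50.2, 40.2, 43.1 and 23.9 CPM in gluten-free S1, S3, S5, S6 and S8, and 22.1, 24.4 and 53.1 CPM in control S1, S2 and S6. Control S6 was the highest of all 20 libraries, and gluten-free S8 lay between control S1 and S2. The log2 fold change was 0.31 ± 0.11 among plain IDs, 0.24 ± 0.30 among S IDs and 0.28 ± 0.15 over both forms (SE). Among S IDs it was 0.76 without control S6, 0.38 without gluten-free S8, 0.06 without control S2 and 0.02 without control S1, and among plain IDs 0.39 without control 5.

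Ccl22 had 12.4, 11.2, 12.1 and 11.02 CPM in gluten-free 7, 8, 9 and 10. The plain control libraries had a lowest value of 6.08, a median of 7.76 and a highest of 12.8 CPM, again in control 5. Among S IDs, Ccl22 had 12.4, 17.2, 15.4, 15.2 and 10.4 CPM in gluten-free S1, S3, S5, S6 and S8, and 10.7, 7.18 and 15.6 CPM in control S1, S2 and S6. The groups overlapped in both forms, and only gluten-free S3 exceeded every control library. The log2 fold change was 0.47 ± 0.16 among plain IDs, 0.34 ± 0.25 among S IDs and 0.42 ± 0.14 over both forms (SE). Among S IDs it was 0.66 without control S6, 0.43 without gluten-free S8 and 0.10 without control S2, and among plain IDs 0.58 without control 5.

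**Figure D1:**
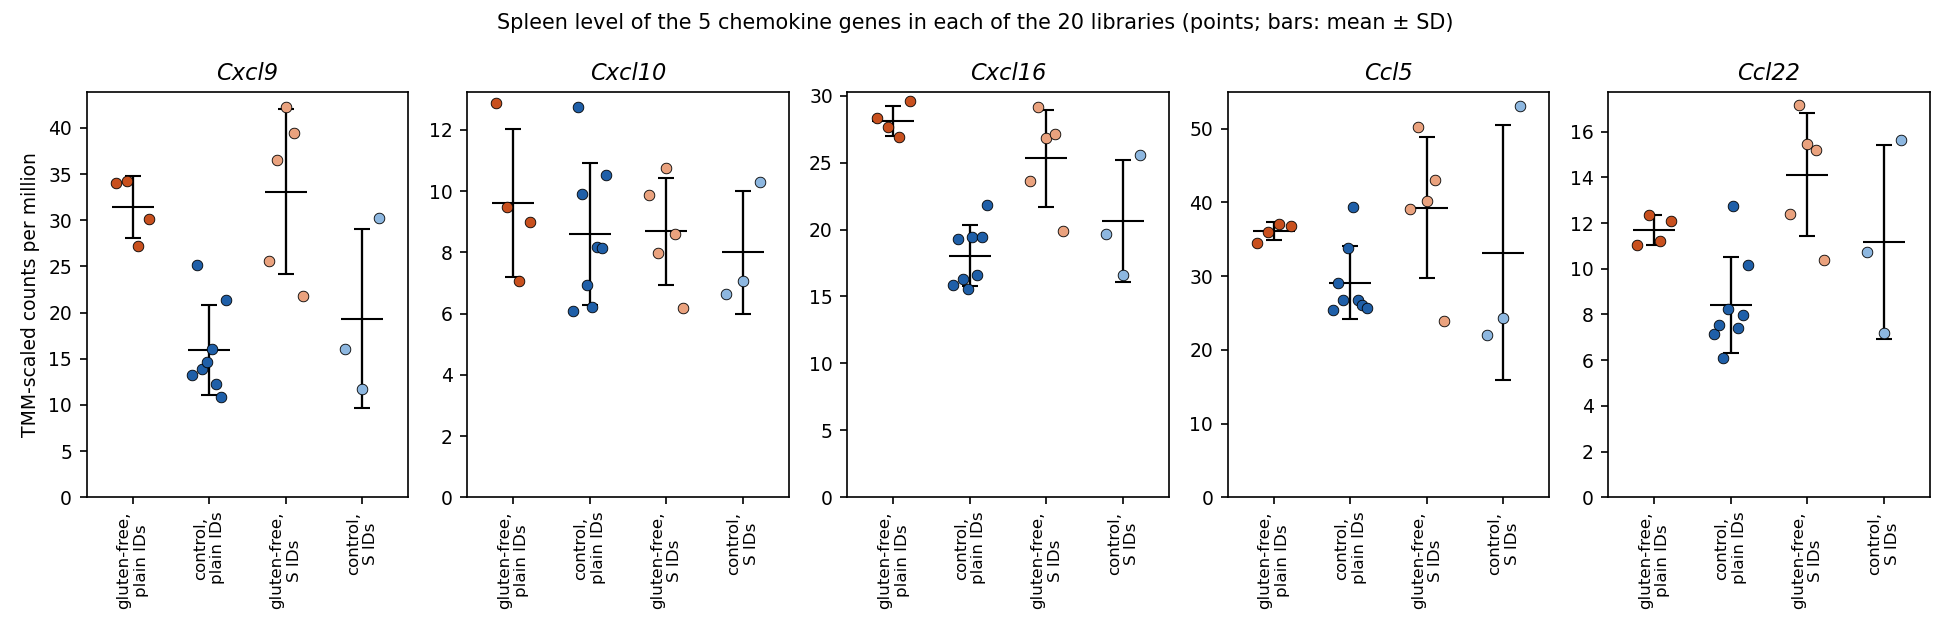
TMM-scaled CPM (vertical axes) of each chemokine gene in each library (points), with the mean and SD of each group (bars) for 4 gluten-free and 8 control libraries with plain IDs and 5 gluten-free and 3 control libraries with S IDs. The plain groups do not overlap for Cxcl9 and Cxcl16, while Cxcl10 lies between 6.09 and 12.9 CPM in all 4 groups, and the highest control S point in each panel is control S6. The genes were selected on the diet comparison, so nothing is read from the separation.

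In the order of group means, the 2 gluten-free groups stood above the 2 control groups for all 5 genes. For Cxcl10 this rests on 8.68 CPM in gluten-free S against 8.59 CPM in plain control libraries. Since the genes were selected on the diet comparison, nothing is read from that order. Neighbouring groups in that order overlapped in range for every gene, so no step between neighbours exceeded the spread. Divided by gene length, so that genes can be compared, Ccl5 had the highest level in all 20 libraries, with 39.4 ± 7.34 CPM per kilobase in gluten-free (SD, n = 9) and 31.5 ± 9.36 in control libraries (SD, n = 11). Cxcl9 followed with 10.7 ± 2.23 and 5.60 ± 2.05 CPM per kilobase in gluten-free and control libraries, and Cxcl16 with 8.79 ± 1.00 and 6.20 ± 1.01. Ccl22 had 5.61 ± 1.00 and 3.94 ± 1.25, and Cxcl10 4.04 ± 0.89 and 3.74 ± 0.96. The order of Cxcl9 and Cxcl16 was not fixed: Cxcl9 stood second in 11 libraries and Cxcl16 in 9.

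Set against all tested genes (edgeR's quasi-likelihood test, called at a Benjamini-Hochberg adjusted p under 0.05), 4 of the 5 genes were called higher among plain IDs, where 39.6% of all genes were called, 17.5% higher and 22.1% lower. The gene not called was Cxcl10. Since the genes were chosen with this comparison known, nothing is read from that count. Ccl5 was not called in 9 and Ccl22 in 5 of the 12 fits that left out 1 plain library, while Cxcl9 and Cxcl16 were called in all 12. Over both ID forms 0% of the genes were called, 0 of the 5 included, with 4559 genes and 3 of the 5 at an unadjusted p under 0.05, and DESeq2 called 1594 genes and 2 of the 5 (Cxcl9 and Cxcl16). Over both forms edgeR called 3718 genes and 4 of the 5 without control S6, and 2923 genes and 3 of the 5 without gluten-free S8. Among S IDs 0% of the genes were called, with 986 genes and 1 of the 5 (Cxcl9) at an unadjusted p under 0.05, and DESeq2 called 4 genes and 0 of the 5.

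The diet difference was then compared between the ID forms. The interaction, S minus plain, was negative for all 5 genes, from -0.34 ± 0.19 for Cxcl16 to -0.04 ± 0.32 for Cxcl10 (log2, SE). None of the 5 was called by edgeR (0 at an unadjusted p under 0.05, 0 called by DESeq2), where 24.8% of all genes were, 15.4% with a more positive and 9.37% with a more negative difference among S IDs. Without control S6 the value turned to 0.28 for Cxcl9, 0.18 for Cxcl10, 0.45 for Ccl5 and 0.18 for Ccl22, and Cxcl16 stayed at -0.16. Without gluten-free S8, Cxcl10 and Ccl5 turned to 0.06 and 0.07.

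The ID forms were also compared within 1 diet, a contrast other than the one the genes were selected on but made of the same libraries. Among gluten-free libraries, S against plain, edgeR's quasi-likelihood test called 31.5% of all genes (19.4% higher and 12.1% lower with S IDs) and 0 of the 5 chemokines, with 0 at an unadjusted p under 0.05 and 0 called by DESeq2. Since the libraries are those the genes were selected on, nothing about the 5 genes is read from that count. Ccl22 had the largest difference, with 14.1 ± 2.69 CPM in S libraries (SD, n = 5) and 11.7 ± 0.66 CPM in plain libraries (SD, n = 4), or 0.27 ± 0.15 on the log2 scale (SE, adjusted p = 0.176). Without gluten-free S8 it was 0.37 and was called (adjusted p = 0.0483). Cxcl9 had 33.1 ± 8.95 and 31.4 ± 3.37 CPM in the S and plain libraries, 0.08 ± 0.18 (adjusted p = 0.771). The values were 0.12 ± 0.17 for Ccl5 (adjusted p = 0.59), -0.15 ± 0.12 for Cxcl16 (adjusted p = 0.332) and -0.15 ± 0.20 for Cxcl10 (adjusted p = 0.593). Scaled by library totals alone, a scaling that moves the median of all genes by -0.37, Cxcl9, Ccl5 and Ccl22 turned to -0.23, -0.18 and -0.03, Cxcl16 was called lower (-0.46, adjusted p = 0.0271), and 1628 of 7415 called genes were higher with S IDs, against 3570 of 5788 with TMM.

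Among control libraries, S against plain, 1.94% of all genes were called and again 0 of the 5, with 0 at an unadjusted p under 0.05 in edgeR and 0 called by DESeq2. Ccl22 again had the largest value, with 11.2 ± 4.24 CPM in S libraries (SD, n = 3) and 8.41 ± 2.11 CPM in plain libraries (SD, n = 8), 0.41 ± 0.24 (SE, adjusted p = 0.427). Cxcl9 had 19.4 ± 9.70 and 15.9 ± 4.89 CPM in S and plain libraries, 0.28 ± 0.27 (adjusted p = 0.696). These values rest on control S6: without it Cxcl9 was -0.20 and Ccl5 -0.33. A difference that missed the threshold in 3 against 8 libraries is not shown to be absent.

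**Figure D2:**
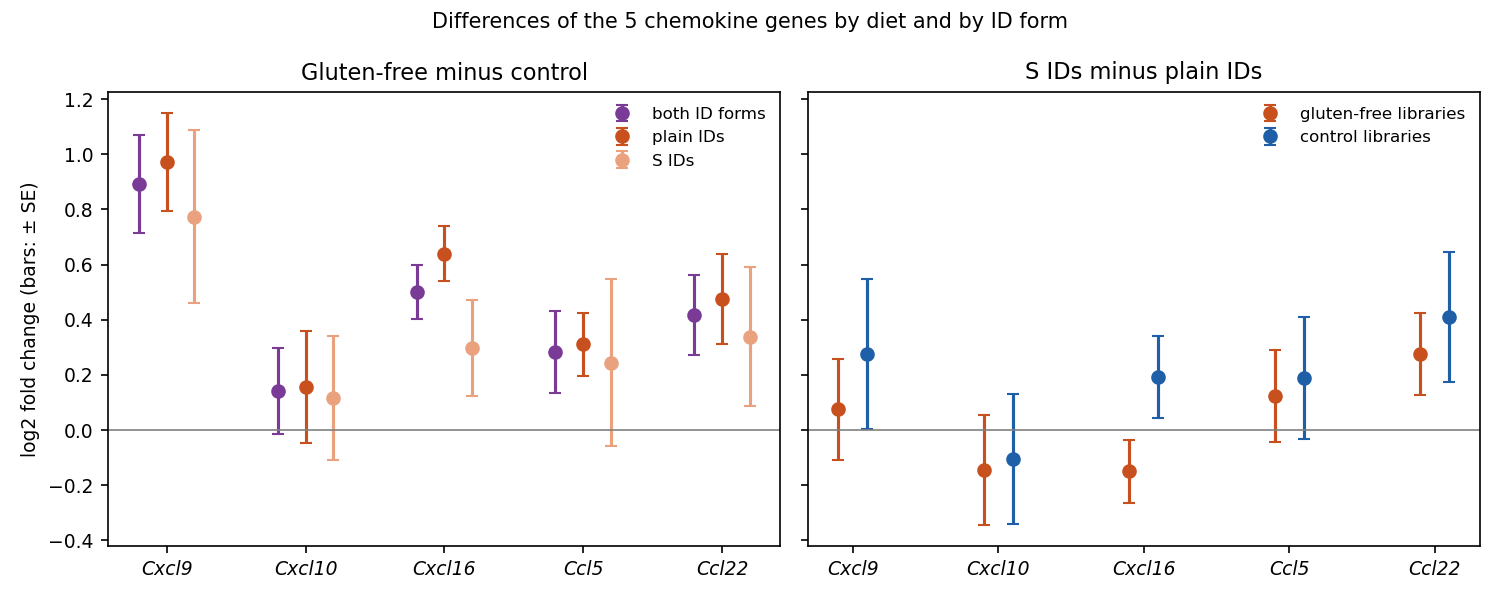
Log2 fold changes with their standard errors of the 5 chemokine genes, gluten-free minus control (left panel: both ID forms, plain IDs, S IDs) and S IDs minus plain IDs (right panel: gluten-free libraries, control libraries). Cxcl9 has the largest diet value in each set, 0.89, 0.97 and 0.77, and Cxcl10 the smallest, 0.14, 0.16 and 0.12.

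Over 20 libraries, after subtraction of each group's mean, Pearson's r of log2 CPM was 0.83 between Cxcl16 and Ccl22, 0.78 between Cxcl9 and Cxcl16 and 0.75 between Ccl5 and Ccl22. It was 0.66 between Cxcl9 and Ccl22, 0.65 between Cxcl16 and Ccl5 and 0.62 between Cxcl9 and Ccl5. For Cxcl10 it was 0.65 to Cxcl9, 0.51 to Cxcl16, 0.25 to Ccl5 and 0.12 to Ccl22. These are descriptions over libraries that share 4 groups, their depth and their cell makeup. They may rest on control S6 (Ccl5 53.1 CPM, against 22.1 and 24.4 CPM in control S1 and S2) and gluten-free S8. They were not computed without these libraries.

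Among 13091 protein-coding genes that averaged 1 CPM or more, the closest patterns to each chemokine were found in the same way, over the 20 libraries less their group means. Cxcl9 ran closest to H2-Q6 (r = 0.95), a class I MHC gene whose near-identical relatives make its count uncertain, followed by Traf1, Nlrc5, the activator of class I MHC genes, Sit1 and Snapc4. Cxcl10 ran closest to Klc3 (0.87), Tgtp2, an interferon-induced GTPase with a near-identical copy, Gbp2 and B2m. For Cxcl16 the nearest were Sigirr (0.92), Cdc42se1, Izumo1r, Mfge8 and B4galt7. Ccl5 ran with Dapl1 (0.92), Lef1, a transcription factor of T cells, the T cell receptor chain Cd3d, Skap1 and Klf2. The nearest to Ccl22 were Tap2 (0.93), a peptide transporter of antigen presentation, Dcaf15, Lpar1, Tmsb10 and Flt3l. No gene was among the closest 5 of more than 1 chemokine. These patterns too may rest on control S6 and gluten-free S8. Between Ccl5 and the T cell marker mean, r was 0.78 over the 20 libraries less group means and 0.09 within the 8 plain control libraries. For Cxcl9 the same values were 0.88 and 0.81. Such values were not particular to T cells. Over the 20 libraries less group means, r was 0.89 between Cxcl9 and the B cell mean. Cxcl16 had 0.86 with dendritic cells and 0.85 with T cells, and Ccl5 had 0.72 with cytotoxic and natural killer cells. Other lists ran the other way, as Cxcl9 had -0.78 with macrophages and -0.73 with red cell precursors.

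All 14 T cell markers were called higher in gluten-free than in control libraries among plain IDs, and their summed level was 958 ± 71 CPM in gluten-free (range 897 to 1060, n = 4) and 594 ± 115 CPM in control libraries (range 477 to 808, n = 8). Among S IDs the sums were 837 ± 224 CPM in gluten-free (range 501 to 1064, n = 5) and 699 ± 460 CPM in control libraries (range 411 to 1229, n = 3), with 0 of 14 called by edgeR or DESeq2 and 0 at an unadjusted p under 0.05 (SD throughout). All 8 regulatory T cell markers were also called higher among plain IDs, with sums of 126 ± 9.57 CPM in gluten-free and 72.3 ± 14.2 CPM in control libraries. Among S IDs their sums were 104.9 ± 23.0 CPM in gluten-free and 103.4 ± 22.6 CPM in control libraries, with 0 of 8 called by edgeR or DESeq2 (1 at an unadjusted p under 0.05 in DESeq2, 0 in edgeR). The log2 fold change was positive for 6 of the 8, with a median of 0.33, against 0.02 over all genes. Lrrc32, the most abundant of the 8, went the other way, with 28.5 CPM in gluten-free and 42.4 CPM in control S libraries, and weighs on these sums. In both lists the S means lean on control S6, the highest control S library, and gluten-free S8, the lowest gluten-free S library. For regulatory T cells control S6 had 128.3 CPM, against 97.88 and 84.05 CPM in control S1 and S2. Gluten-free S8 had 67.6 CPM, against 100.8 to 123.7 CPM in the other gluten-free S libraries. Cd247, a chain of the T cell receptor complex, averaged 41.3 CPM in plain gluten-free and 24.4 CPM in plain control libraries, and Il2ra, the regulatory T cell interleukin 2 receptor, 10.4 and 6.09 CPM. In whole tissue, more cells of a type and more RNA per cell cannot be told apart.

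Of the cells that make these chemokines, 7 of 11 dendritic cell markers were called higher and 1 lower among plain IDs, with summed levels of 531 ± 6.65 CPM in gluten-free and 418 ± 31.5 CPM in control libraries (SD). Fscn1, of mature dendritic cells, averaged 48.9 CPM in gluten-free and 29.9 CPM in control libraries, and Zbtb46, of conventional dendritic cells, 31.9 and 43.1 CPM. Among S IDs the dendritic cell sums were 435.6 CPM in gluten-free and 439.5 CPM in control libraries, with 0 of 11 called by edgeR or DESeq2 (1 at an unadjusted p under 0.05 in each). The median log2 fold change of the 11 markers there was -0.002. Sirpa alone gave 165 CPM in gluten-free and 185 CPM in control S libraries, so the sums weigh the most abundant markers most. These sums too lean on control S6 (512.8 CPM, against 422 and 383.7 CPM in control S1 and S2). Gluten-free S8, with 361.7 CPM, was the lowest gluten-free S library. None of the 12 macrophage markers was called by edgeR or DESeq2 (1 at an unadjusted p under 0.05 in each), with sums of 1055 ± 118 and 1007 ± 183 CPM in gluten-free and control libraries. Scaling by library totals, which raises the median of all genes by 0.31, called 5 of them higher, and the red cell precursor and T cell covariates called 1 and 2. Of 11 markers of cytotoxic and natural killer cells, which also make Ccl5, only Nkg7 was called, higher (33.8 CPM in gluten-free and 21.7 CPM in control libraries). B cells had 1 of 7 markers called higher, Cd79b, a call kept in 9 of 21 alternatives.

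Red cell precursors moved the other way, as all 14 of their markers were called lower among plain IDs. Their summed level was 59040 CPM (range 38930 to 75170, n = 4) in gluten-free and 107800 CPM (range 56970 to 135500, n = 8) in control libraries, and among S IDs it was 100900 and 115400 CPM. Control S6 had 65990 CPM, against 144400 and 135800 CPM in control S1 and S2. Also among plain IDs, 9 of 10 monocyte and neutrophil markers, all 7 platelet markers and 5 of 10 endothelial and stromal markers were called higher. Mpo, a neutrophil granule enzyme, averaged 285 CPM in gluten-free and 72.8 CPM in control libraries, and Itga2b, of megakaryocytes, 379 and 181 CPM. Of the mesothelial and fat cell markers, 1 of 7 was called, higher. Among S IDs none of the markers of these 5 lists was called by edgeR or DESeq2, with 3 of 10 endothelial and stromal and 4 of 7 mesothelial and fat cell markers at an unadjusted p under 0.05 in edgeR and 0 of the others. Of all 18362 tested genes, 986 were under that unadjusted p among S IDs. The median log2 fold changes there were -0.003 for red cell precursors, -0.36 for monocytes and neutrophils, -0.56 for platelets, -0.54 for endothelium and stroma and -1.29 for mesothelium and fat cells. The interaction, S minus plain, was called positive for 11 of 14 red cell precursor markers. It was called negative for 9 of 10 monocyte and neutrophil, 6 of 7 platelet, 4 of 10 endothelial and stromal and 2 of 7 mesothelial and fat cell markers. Over all genes it was called positive for 15.4% and negative for 9.37%.

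With the mean T cell marker level as a covariate, 0 of the 5 chemokines was called among plain IDs, and Cxcl9 was 0.18 ± 0.22, Cxcl16 0.34 ± 0.15, Ccl5 0.25 ± 0.20, Ccl22 -0.03 ± 0.25 and Cxcl10 -0.18 ± 0.34 (log2, SE). With the red cell precursor mean as a covariate the values were 0.02 ± 0.34 for Cxcl9, 0.30 ± 0.22 for Cxcl16, 0.44 ± 0.27 for Ccl5, -0.03 ± 0.36 for Ccl22 and -0.38 ± 0.45 for Cxcl10, and 0 of 5 were called. The genes called among all tested numbered 1271 and 775 in these fits. Neither covariate, a mean of log2 CPM over the markers, overlapped between the plain diet groups. The T cell mean was 5.71 or more in gluten-free and 5.61 or less in control libraries. For red cell precursors the mean was 9.26 or less in gluten-free and 9.58 or more in control libraries. Diet and cell makeup therefore cannot be told apart in these libraries. Over both ID forms, the T cell covariate gave 0.42 ± 0.12 for Cxcl9, 0.26 ± 0.08 for Cxcl16 and -0.06 ± 0.13 for Ccl5.

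**Figure D3:**
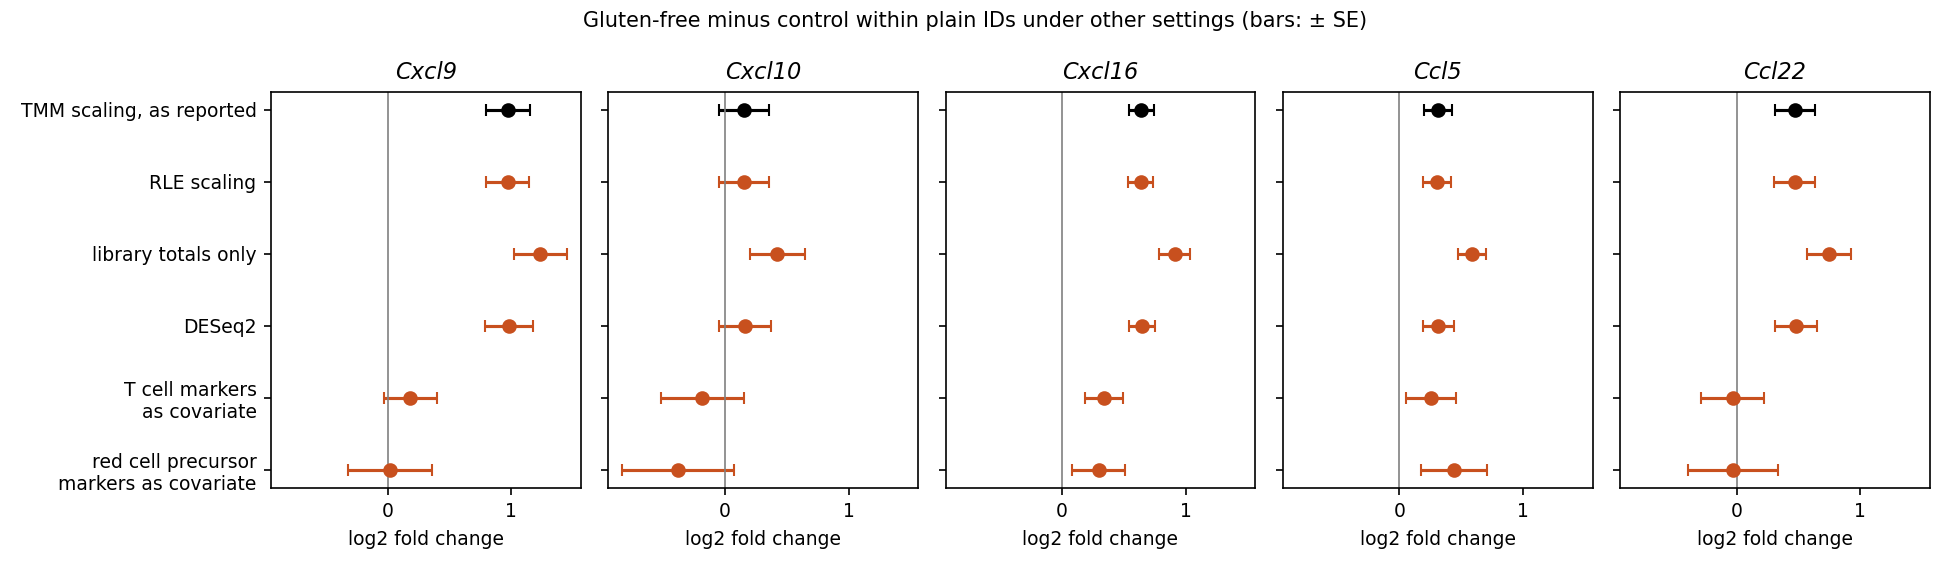
Log2 fold changes with standard errors, gluten-free minus control within plain IDs, of each chemokine gene under the reported TMM scaling and under other scalings, DESeq2 and 2 marker covariates (rows). Cxcl16 and Ccl5 are positive in every row, while Cxcl9 is 0.97 as reported and 0.02 with the red cell precursor covariate.

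Within 1 diet and 1 ID form, the only group with more than 5 libraries is the 8 plain controls, and 10 relations were computed there (5 genes with the T cell and with the red cell precursor mean). With the T cell mean, Cxcl9 had Pearson's r = 0.81 (exact permutation p = 0.0143, adjusted over the 10 relations 0.122) and Spearman's rho = 0.71 (exact permutation p = 0.0576, adjusted 0.288). Cxcl16 had r = 0.75 (exact permutation p = 0.0319, adjusted 0.122) and rho = 0.55 (exact permutation p = 0.171, adjusted 0.36). Without control 2 and control 8, the libraries farthest from the median T cell level, r was 0.56 for Cxcl9 and 0.36 for Cxcl16. Ccl5 had r = 0.09 (exact permutation p = 0.815) and rho = -0.07 (exact permutation p = 0.882), and r = 0.66 without those 2 libraries. Without them r was 0.85 for Ccl22 and -0.81 for Cxcl10, against 0.63 and 0.33 over all 8, so each of the 5 values leans on those libraries. None of the 10 relations passed adjustment.

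**Figure D4:**
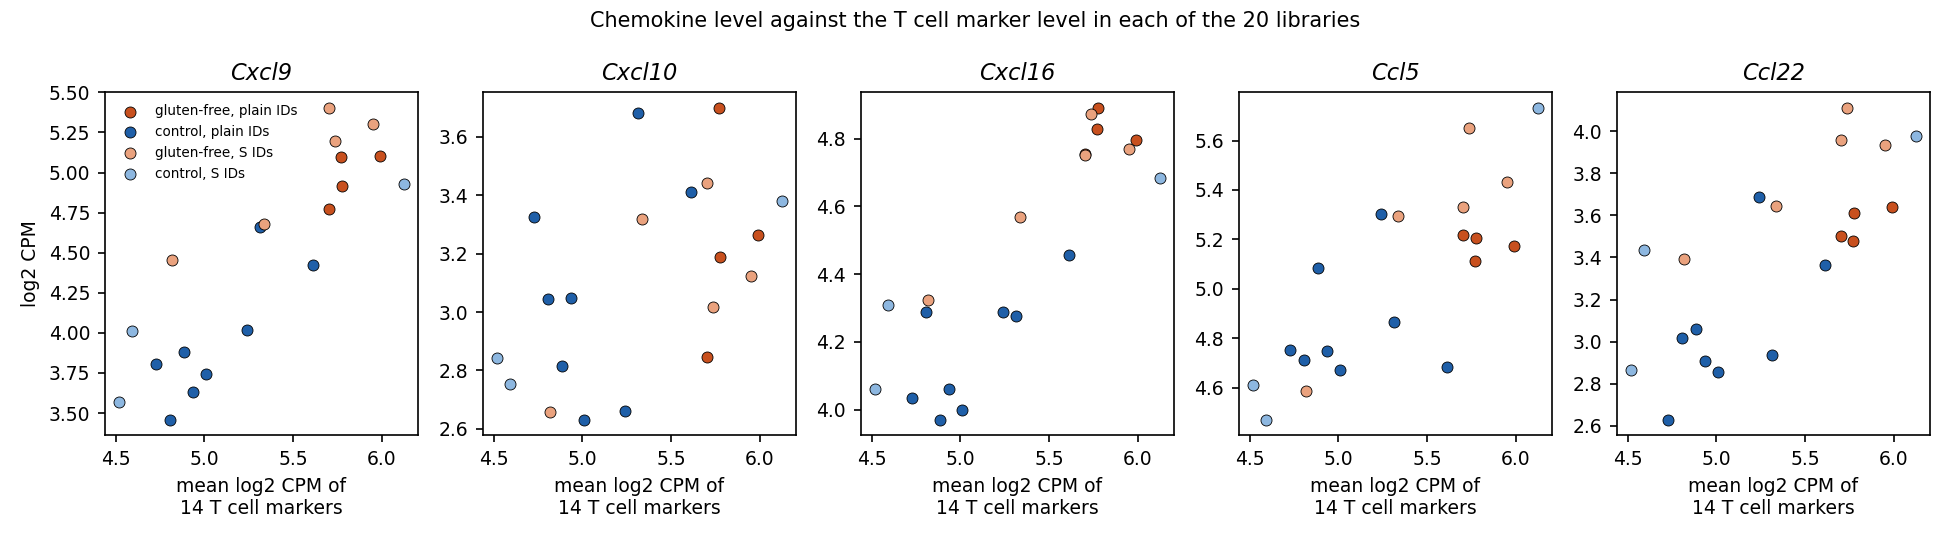
Log2 CPM of each chemokine gene (vertical axes) against the mean log2 CPM of 14 T cell markers (horizontal axes) in each of the 20 libraries, colored by diet and ID form. Control S6, the rightmost point, lies among or near the gluten-free libraries, and gluten-free S8 lies among the control libraries on the horizontal axis.

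Of the receptors of the chemokines, 5 are given here from the same fits and libraries. Their list too was chosen with earlier results of these data known, so their values are a description. Among plain IDs 2 of these 5 were called higher and 0 lower, where 17.5% of all genes were called higher and 22.1% lower. The median log2 fold change of the 5 was 0.61, against 0.03 over all genes. Cxcr6, the receptor of CXCL16, had 12.5 ± 2.14 CPM in gluten-free and 7.77 ± 1.79 CPM in control libraries (SD), higher by 0.68 ± 0.17 in log2 units (SE, edgeR adjusted p = 0.00475). Ccr1 had 11.6 ± 2.13 and 6.16 ± 1.28 CPM, 0.92 ± 0.16 (adjusted p = 0.000386). The calls of Cxcr6 and Ccr1 were kept in 18 of 21 alternatives each, and 0 of the 5 receptors were called with either marker covariate. Cxcr3, the receptor of CXCL9 and CXCL10, had 9.78 ± 0.69 CPM in gluten-free and 7.90 ± 0.83 CPM in control libraries, and 0.31 ± 0.12 did not pass (adjusted p = 0.0505). Ccr4, the receptor of CCL22, was 0.61 ± 0.35 (adjusted p = 0.173) and Ccr3, another CCL5 receptor, -0.02 ± 0.19 (adjusted p = 0.933).

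Among S IDs 0 of the 5 receptors were called by edgeR or DESeq2 (0 at an unadjusted p under 0.05), with values from -0.43 ± 0.47 for Ccr3 to 0.84 ± 0.48 for Ccr4 and a median of -0.21. Cxcr6 had 7.63 ± 2.25 CPM in gluten-free and 9.06 ± 3.36 CPM in control libraries, and Ccr1 5.80 ± 1.79 and 6.71 ± 1.43 CPM. The diet difference itself differed between the ID forms for Cxcr6 (interaction, S minus plain, -0.93 ± 0.33, edgeR adjusted p = 0.0443) and Ccr1 (-1.13 ± 0.30, adjusted p = 0.0103). The call was kept in 12 of 26 alternatives for Cxcr6, not without control S6, and in 26 of 26 for Ccr1. The interaction of Cxcl16 itself was -0.34 ± 0.19. Among gluten-free libraries, Cxcr6 and Ccr1 were called lower in S than in plain libraries (-0.71 ± 0.22 and -1.004 ± 0.22, adjusted p = 0.0293 and 0.00551).

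Of 6 enzymes and decoy receptors that act on chemokines, 3 were called lower and 0 higher among plain IDs. Adam10, a sheddase of CXCL16, had 194 CPM in gluten-free and 300 CPM in control libraries (-0.63 ± 0.11, edgeR adjusted p = 0.000435), while its relative Adam17 was 0.04 ± 0.11 (adjusted p = 0.793). Ackr1, a chemokine scavenger of red cells and venules, had 35.8 CPM in gluten-free and 86.1 CPM in control libraries (-1.26 ± 0.18, adjusted p = 6.85e-05). Ccrl2, a receptor relative that does not signal, had 12.98 and 27.3 CPM (-1.07 ± 0.17, adjusted p = 0.000123). With the red cell precursor mean as a covariate, Adam10 was 0.15, Ackr1 -0.067 and Ccrl2 -0.16. Among S IDs the 3 genes were 0.05, 0.30 and 0.02, and each interaction was called (0.68 ± 0.25, 1.56 ± 0.35 and 1.09 ± 0.35, adjusted p = 0.0475, 0.00439 and 0.0274). That of Adam10 was called in 6, of Ackr1 in 26 and of Ccrl2 in 20 of 26 alternatives.

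**Figure D5:**
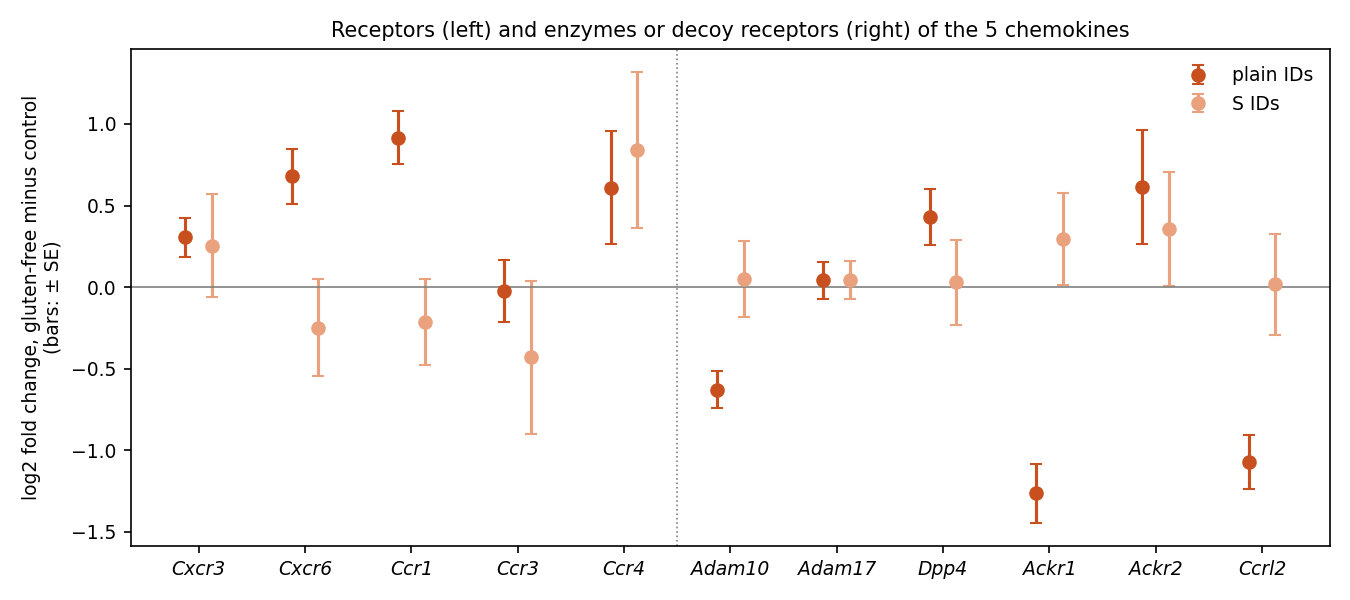
Log2 fold changes with standard errors, gluten-free minus control, of 5 receptors (left of the dotted line) and 6 genes listed as enzymes or decoy receptors (right of it), within plain IDs and within S IDs. Cxcr6 and Ccr1 are 0.68 and 0.92 among plain IDs and -0.25 and -0.21 among S IDs, and Ackr1 is -1.26 and 0.30.

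Other chemokine ligands were counted from a list of 32, of which 24 passed the filter. Among plain IDs 10 were called higher and 0 lower, with a median of 0.71. Cxcl13, which draws B cells into follicles, had 123 CPM in gluten-free and 68.4 CPM in control libraries (0.84 ± 0.22, edgeR adjusted p = 0.00582). The monocyte chemokine Ccl7 (0.40 and 0.15 CPM) and the CCR7 ligand Ccl19 (1.24 and 0.77 CPM, with near-identical copies in the annotation) did not pass (adjusted p = 0.0828 and 0.172). Cxcl11, the other CXCR3 ligand, had 13 counts over all 20 libraries and was not tested. Among S IDs 11 of the 24 ligands had a positive value, with a median of -0.10 and 0 called by edgeR or DESeq2 (3 at an unadjusted p under 0.05 in edgeR). The interaction was called negative for 6 of the 24, where it was for 9.37% of all genes.

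Of 23 genes of interferon gamma signalling and its targets, 22 were tested, and among plain IDs 13 were called higher and 1 lower (median 0.43). Socs1, a brake on cytokine signalling, had 11.2 CPM in gluten-free and 6.04 CPM in control libraries (0.89 ± 0.15, edgeR adjusted p = 0.000285). The serpin Serpina3g had 61.0 CPM in gluten-free and 43.4 CPM in control libraries (0.49 ± 0.10, adjusted p = 0.00126). The type I interferon response divided, with 3 of 16 called higher and 4 lower (median -0.19, and 0.09 with library totals alone). There the antiviral gene Rsad2 had 236 CPM in gluten-free and 508 CPM in control libraries (-1.11 ± 0.17, adjusted p = 0.000135), Isg15 41.0 and 92.6 CPM (-1.18 ± 0.22, adjusted p = 0.000634), and Zbp1 27.9 and 18.0 CPM (0.63 ± 0.16, adjusted p = 0.00477).

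Of 15 tested genes of the NF-kB and TNF response, 11 were called higher and 0 lower among plain IDs (median 0.51). The activation marker Cd83 had 81.8 CPM in gluten-free and 51.9 CPM in control libraries, Tnf 11.3 and 6.12 CPM, and Traf1, also close to Cxcl9 in pattern, 69.8 and 42.2 CPM. Of 7 tested type 2 and regulatory cytokine genes, 3 were called higher, among them the alarmin Il33 (16.5 and 8.89 CPM) and Il15 (3.32 and 2.10 CPM), while Il10 did not pass (adjusted p = 0.0519). No gene of these lists was called by edgeR or DESeq2 among S IDs, where edgeR gave 0 of 22, 1 of 16, 0 of 15 and 2 of 7 genes an unadjusted p under 0.05. The medians there were 0.10 for interferon gamma, 0.02 for type I interferon, 0.21 for NF-kB and TNF and -0.01 for type 2 and regulatory cytokines. The shares of 17.5% higher and 22.1% lower calls over all genes are the background to each of the plain ID counts.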

How the data were processed

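The 5 genes, the gene lists and the cell type markers were chosen with earlier results of these data known. The authors deposited raw, whole-number counts per gene, not normalized. The submitters' processing notes name CASAVA, HISAT2 2.0.5, featureCounts 1.5.0 and GRCm38 (mm10), while the strand setting and annotation release are not given in the sources used here. RNA was taken from whole spleen with a lipid tissue kit and DNase, per the labels' protocols.

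From these counts, TMM scaling and the default expression filter were applied over the 20 libraries in R 4.3.3 with edgeR 4.0.16, which left 18362 of 54532 genes. Each 2-group contrast was fitted on its own libraries with the quasi-likelihood test, the contrast over both ID forms held the ID form as a term, and the interaction used 4 groups. P-values were Benjamini-Hochberg adjusted over all tested genes and called under 0.05. The SE was obtained by dividing the size of the log2 fold change by the square root of the F statistic. Log2 CPM used a prior count of 2. Exact permutation tests were two-sided. The fits were tested on simulated counts. Alternatives were other scalings, filters, DESeq2 1.42.0, 1 fit of all libraries, a replicate block, 2 marker covariates and leaving out each library. Leaving out control S6 and gluten-free S8 together, and the relations within plain controls, were added after seeing the data. Named genes are the 5 chemokines, 5 of their receptors, up to 3 genes of each other list with the smallest unadjusted p over both ID forms, and the 5 closest patterns per chemokine. A few further list members are given as counts. Some genes that these lists and rules take in are not reported here.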

Additional observations from a re-analysis of the deposited data

Results flagged for a closer look

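Chemokine and receptor values were checked, in 30 groups, for a single library far from the rest. The control S group, with 3 libraries, was not among the groups checked, so the check says nothing about control S6. Ccl5 there had 53.1 CPM, against 22.1 and 24.4 CPM in control S1 and S2. Of the 30 groups 3 were marked, where chance gives about 1 in 20, and none of the 3 was a chemokine value. Cxcr3 had 8.74 CPM in gluten-free 8, and the nearest plain gluten-free library had 10.1 CPM. In control 8, Ccr1 had 8.90 CPM (nearest plain control library 6.497) and Ccr4 had 4.30 CPM (nearest 2.16). Control 8 also had the highest T cell marker sum of the plain control libraries, 808 CPM.

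The diet difference of 2 receptor genes differed between the ID forms by the interaction term of edgeR. The log2 difference, S minus plain, was -0.93 ± 0.33 for Cxcr6 and -1.13 ± 0.30 for Ccr1 (SE). Both genes were called higher in gluten-free than in control libraries among plain IDs. Among S IDs Cxcr6 was -0.25 ± 0.295 and Ccr1 -0.21 ± 0.26 (SE), each smaller than its own error. As given above, the interaction call of Cxcr6 was lost without control S6 and in many other alternatives, while that of Ccr1 was kept in all.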

How the results depend on the processing

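Precision is limited by 3 control S libraries. Of 475 alternative diet and interaction values of the 5 chemokines, 26 had the opposite sign, 13 of them diet values (9 of Cxcl10, 2 of Ccl5 and 2 of Ccl22) and 13 interactions (6 of Cxcl10, 3 of Ccl5, 2 of Cxcl9 and 2 of Ccl22). Only 2 of the 26 were of a called value, as Ccl22 among plain IDs was -0.028 with the red cell precursor mean and -0.032 with the T cell mean as covariate. Of 160 ID form values, 9 had the opposite sign. Among gluten-free libraries, library totals alone gave -0.23 for Cxcl9, -0.18 for Ccl5 and -0.034 for Ccl22. Leaving out each library in turn, the ID form values ran from -0.20 to 0.53 (Cxcl9), -0.33 to 0.014 (Cxcl10) and -0.33 to 0.41 (Ccl5) in control, and from -0.026 to 0.19 (Cxcl9) and -0.27 to 0.025 (Cxcl10) in gluten-free libraries. The causes were not tested. Of the called receptor and enzyme genes, Cxcr6 and Adam10 changed direction among plain IDs with the red cell precursor covariate (-0.38 and 0.15).

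Over both ID forms, where edgeR called 0 genes, 1 was called without the filter, 1 without the ID form term, 1594 with DESeq2 (2 of the 5 chemokines) and 5374 without control S6 and gluten-free S8 (4 of the 5). Leaving out 1 library gave 0 to 3718 genes and 0 to 4 of the 5, the highest without control S6, and 2923 and 3 of the 5 without gluten-free S8. Among plain IDs, 7266 genes became 775 with the red cell precursor and 1271 with the T cell covariate, each with 0 of the 5, and 1 fit of all 20 libraries called 6510 genes and 2 of the 5. Leaving out 1 library there gave 5888 to 8684 genes and 2 to 4 of the 5. Among S IDs, where 0 genes were called, DESeq2 called 4 and the fit without both libraries 3, and leaving out 1 library gave 0. The interaction, 4545 genes, gave 2909 without both libraries, with 1 of the 5 called, and 3273 to 5418 with 1 library left out. The ID form within control, 356 genes, gave 910 with DESeq2, 581 in 1 fit of all libraries and 0 to 949 with 1 library left out. Within gluten-free, 5788 genes became 4137 to 7479 with 1 library left out, with 0 to 1 of the 5 (Ccl22, without gluten-free S8), and library totals called 1 of the 5. Library totals moved the median of all genes by 0.31 among plain IDs (6522 of 8565 calls higher, against 3216 of 7266), 0.16 over both forms, -0.30 in the interaction (1294 of 3944 higher, against 2825 of 4545) and -0.37 within gluten-free libraries.

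For libraries that share an ID number across diets, the deviations from their group means had r = -0.17 for 7, -0.20 for 8, 0.09 for S1 and 0.38 for S6. Only the S6 libraries deviated together to some extent, and the numbers were not taken to pair libraries. With a replicate block, 0 genes were called among plain IDs and over both forms, with 0 of the 5, and 90 among S IDs, from 2 pairs in each form.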

Other observations

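Ccl17 and Ccl22 encode the 2 ligands of CCR4, and their genes lie on chromosome 8 with Cx3cl1 between them. They were set side by side after their values had been seen. Ccl17 had 0.74 CPM in gluten-free and 0.40 CPM in control libraries among plain IDs (log2 fold change 0.88 ± 0.35, SE, edgeR adjusted p = 0.0533), and 0.24 and 0.48 CPM among S IDs (-1.01 ± 0.63). Its interaction, S minus plain, was called (-1.89 ± 0.64, adjusted p = 0.0358), while that of Ccl22 was not (-0.14 ± 0.29, adjusted p = 0.767). Among gluten-free libraries Ccl17 was lower with S than with plain IDs (-1.64 ± 0.48, adjusted p = 0.0234), where Ccl22 was 0.27 ± 0.15. Ccl17 was low in all groups, which limits the precision of its values, and the interaction was called in 15 of the 25 alternatives that gave it a value.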
